A study of Saccharomyces cerevisiae with 13 samples.

Results

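The G1 and B-type cyclin genes of *S. cerevisiae* were examined in 4 pooled libraries of nascent and total RNA. The genes were chosen by name, as *CLN1*, *CLN2*, *CLN3* and *CLB1* to *CLB6*, and 8 of these 9 genes were found among the 4280 transcript models analysed. *CLB2* was not analysed here. All cultures were of the laboratory strain BY4742, grown in rich glucose medium to exponential phase. The nuclear run-on (NRO) (HS) and total RNA (HS) groups came from cultures that were moved to 39° for 20 min, and the NRO and total RNA groups from cultures kept at 30°. For NRO, permeabilized cells extended their nascent transcripts with biotin-UTP and the labelled RNA was selected on streptavidin beads, so that the reads report transcriptional activity. Total RNA, which reports transcript abundance, was sequenced without the selection. Each group holds 3 libraries, which the authors merged into 1 value per gene, so that there is no replicate spread, and every interval below covers counting error only.

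Cyclins bind and activate the kinase Cdc28, and each one is made in a particular part of the cell cycle. Cln3 acts first, in G1, where it helps to release the transcription factors SBF and MBF from repression. These factors then turn on *CLN1* and *CLN2*, whose products drive budding and the entry into the cycle, and *CLB5* and *CLB6*, whose products start DNA replication. Clb1 to Clb4 act later, in spindle assembly and mitosis. In yeast, a mild heat shock is known to delay cells in G1 for a time. The cultures were not described as synchronized, and a smaller share of cells in one stage cannot be told apart from less RNA per cell.

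Values are read densities, the mean read depth per mappable base scaled by the library's sequenced bases. They are thus shares of a library, and whether total transcription or total RNA per cell changed was not tested. The region measured leaves out the 5′ start of each model. All 8 regions lacked introns and were 100% mappable, although several of these genes are paralogs. They measured between 936 bases (*CLB6*) and 1873 bases (*CLN3*), and levels are given per base so that genes can be set side by side. The study states that nascent transcripts are nested, with fewer of them reaching further toward the 3′ end. Scaling per base does not remove this effect of transcript length in NRO. The *CLN3* region (YAL040C) lay on the minus strand of chromosome I, from 65768 to 67640 in sacCer2. That of *CLN2* (YPL256C) lay on the minus strand of chromosome XVI, from 64789 to 66597, and that of *CLN1* (YMR199W) on the plus strand of chromosome XIII, from 662649 to 664380. *CLB1* (YGR108W) and *CLB6* (YGR109C) are neighbours on chromosome VII that converge, with the region of *CLB1* on the plus strand from 703724 to 705206 and that of *CLB6* on the minus strand from 705361 to 706296. The reads were strand-specific, and the values are those of the sense strand. The *CLB3* region (YDL155W) ran from 176843 to 178187 on chromosome IV, the *CLB4* region (YLR210W) from 562155 to 563566 on chromosome XII, both on the plus strand, and the *CLB5* region (YPR120C) from 773864 to 774999 on the minus strand of chromosome XVI.

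Depth sets how far each gene can be read. The libraries held an estimated 378273 (NRO (HS)), 2491144 (NRO), 656630 (total RNA (HS)) and 894262 (total RNA) reads, and the median model held 8, 69.0, 11 and 23 of them. The heat shock was visible in *SSA4*, an Hsp70 gene, whose read density was 30.5-fold higher in NRO (HS) than in NRO and 45.9-fold higher in total RNA (HS) than in total RNA. *LYS2*, which is deleted in BY4742, was at 0 in all 4 libraries. Of the 5 a-specific genes, which a strain of the α mating type should not express, *MFA1*, *MFA2* and *BAR1* were at 0 in all 4, *STE2* had 2 reads in total RNA only, and *STE6* had 3 to 8 reads per library. These zeros are a weak check, since 1322 (NRO (HS)), 695 (NRO), 844 (total RNA (HS)) and 600 (total RNA) of the 4280 models were at 0. The α-specific genes were not analysed here.

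*CLN3* had by far the highest transcriptional activity of the cyclin genes analysed, but not the highest transcript level in log growth. Its read density was 0.368 in NRO (HS) (95% interval 0.325 to 0.416), 0.248 in NRO (0.234 to 0.262), 0.0814 in total RNA (HS) (0.0663 to 0.0990) and 0.0411 in total RNA (0.0320 to 0.0520). The NRO level was supported by an estimated 1156 reads, more than for any other member, and stood at position 371 among all models, whereas the total RNA level stood at position 1549. *CLN3* made up 65.2% of the summed density of the 3 G1 cyclin genes in NRO and 34.8% in total RNA.

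*CLN2* came next in NRO, with a density of 0.0883 (0.0799 to 0.0974), and *CLN1* followed with 0.0438 (0.0378 to 0.0505). The intervals of *CLN3*, *CLN2* and *CLN1* were apart from each other. These G1 cyclins are a paralog pair, and *CLN1* was the less transcribed one, at 0.496 of the *CLN2* density (0.415 to 0.591). In total RNA the same ratio was 0.367 (0.237 to 0.555). Over the 4 libraries the ratio of the pair lay between 0.348 and 0.496, with overlapping intervals.

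Among the B-type cyclin genes analysed, which did not include *CLB2*, the highest level was that of *CLB3*, which acts in spindle assembly and mitosis. Its density was 0.0342 in NRO (0.0283 to 0.0411, 115 reads) and 0.0844 in total RNA (0.0688 to 0.102, 101 reads). The mitotic cyclin gene *CLB1* had 0.0171 in NRO (63 reads) and 0.0221 in total RNA (29.3 reads). In NRO the interval of *CLB3* overlapped that of *CLN1* and was apart from that of *CLB1*. The S phase cyclin gene *CLB5* had 0.00707 in NRO and 0.0148 in total RNA (20 and 15 reads), and *CLB4* had 0.00455 and 0.00475 (16 and 6 reads). *CLB5* and *CLB4* were not separated from each other in either library. *CLB6* was listed at 0 in NRO and held 1.5 estimated reads in total RNA, so that no ratio was taken. A floor of 3 reads corresponds to a *CLB6* density of 0.00129 in NRO.

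The order of the levels thus differed between both kinds of RNA. In NRO it was *CLN3*, *CLN2*, *CLN1*, *CLB3*, *CLB1*, *CLB5*, *CLB4* and *CLB6*, and in total RNA *CLB3*, *CLN2*, *CLN3*, *CLB1*, *CLN1*, *CLB5*, *CLB4* and *CLB6*. In total RNA the intervals of *CLB3* and *CLN2*, and those of *CLN2* and *CLN3*, overlapped, and the first break between neighbours came between *CLN3* and *CLB1*. The density of *CLN3* was 7.23 times that of *CLB3* in NRO (5.96 to 8.84) and 0.487 of it in total RNA (0.353 to 0.668). After heat shock *CLN3* was the highest gene in NRO (HS) and in total RNA (HS). In NRO (HS) its interval was apart from that of *CLN2*, the next gene, whereas in total RNA (HS) it overlapped that of *CLB3*, and the break came between *CLB3* and *CLN2*. The plot of read densities shows these orders side by side.

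**Figure D1:**
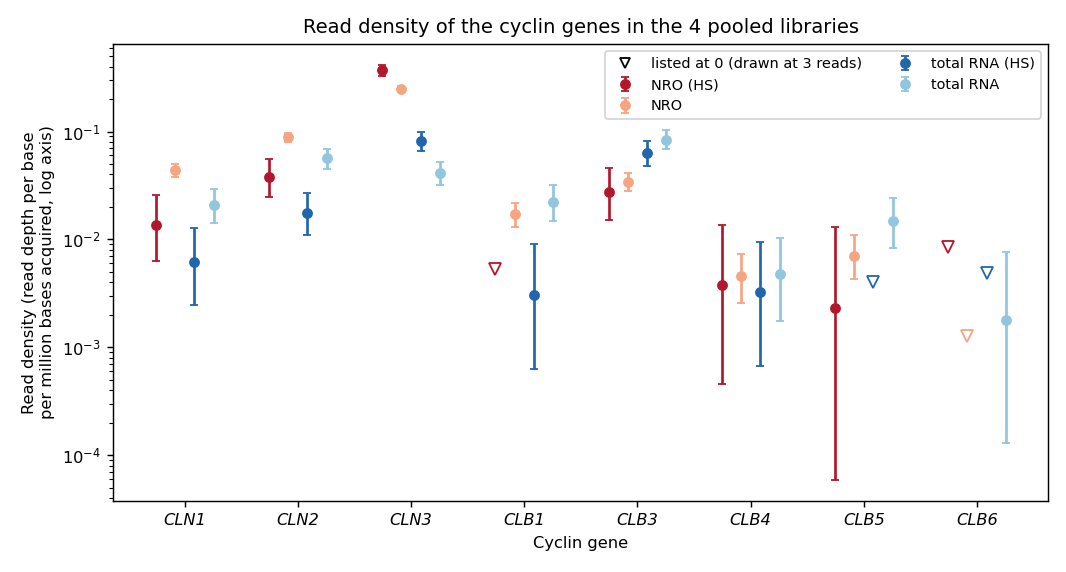
Read density (log axis) of the 8 cyclin genes in the pooled NRO (HS), NRO, total RNA (HS) and total RNA libraries, with exact Poisson 95% intervals on estimated reads and open triangles at 3 reads for genes listed at 0. *CLN3* is the highest gene in both NRO libraries, at 0.368 and 0.248, while in total RNA *CLB3* is highest, at 0.0844.

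The comparison of NRO with total RNA in log growth asked how far transcriptional activity and transcript abundance go together. With 1 pooled value per group there is no test, and a ratio of 2 or more, or of 0.5 or less, was taken as a call. Of the 7 cyclin genes with reads in both libraries, 2 were at least 2-fold higher in NRO (*CLN3* and *CLN1*) and 2 at least 2-fold lower (*CLB3* and *CLB5*). Among all 3400 genes with reads in both, 21.8% were at least 2-fold higher and 19.0% at least 2-fold lower. The median log2 ratio was -0.06 for the cyclins and -0.01 for all genes, so that the cyclins as a set were near the middle and spread to both sides of it. All 3 G1 cyclin genes had a ratio above 1, and all 4 B-type cyclin genes one below 1.

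The NRO density of *CLN3* was 6.03 times its total RNA density (4.72 to 7.80), a ratio above that of 97.1% of all genes. That of *CLN1* was 2.12 (1.45 to 3.19) and that of *CLN2* 1.57 (1.25 to 1.99). *CLB3* lay on the other side, with a ratio of 0.406 (0.308 to 0.536) that exceeded 13.7% of all genes. *CLB5* had a ratio of 0.479, but its interval of 0.233 to 1.005 just included 1. The intervals of *CLB1* (0.771, 0.490 to 1.24) and *CLB4* (0.957, 0.356 to 2.99) also included 1.

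After heat shock the same ratio could be formed for 5 genes, 3 of them at least 2-fold higher in NRO (HS) than in total RNA (HS) and 1 at least 2-fold lower, against 24.4% and 12.9% of the 2831 genes with reads in both libraries. The 3 genes were the G1 cyclins. *CLN3* had a ratio of 4.52 (3.58 to 5.76), *CLN2* of 2.15 (1.16 to 4.02) and *CLN1* of 2.23 (0.740 to 7.05), the last from 9 NRO (HS) and 7 total RNA (HS) reads. The median log2 ratio of all genes was 0.22 here, and relative to it *CLN2* (0.89) and *CLN1* (0.94) were no longer past 2-fold, whereas *CLN3* (1.96) was, as were 19.7% of all genes on the higher side and 17.7% on the lower side. *CLB3* was lower, at 0.433 (0.223 to 0.788). For *CLB4*, with 2 and 3 reads, no ratio is given. The plot of NRO over total RNA shows *CLN1*, *CLN2* and *CLN3* above 1 and *CLB3* below 1 in both conditions.

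**Figure D2:**
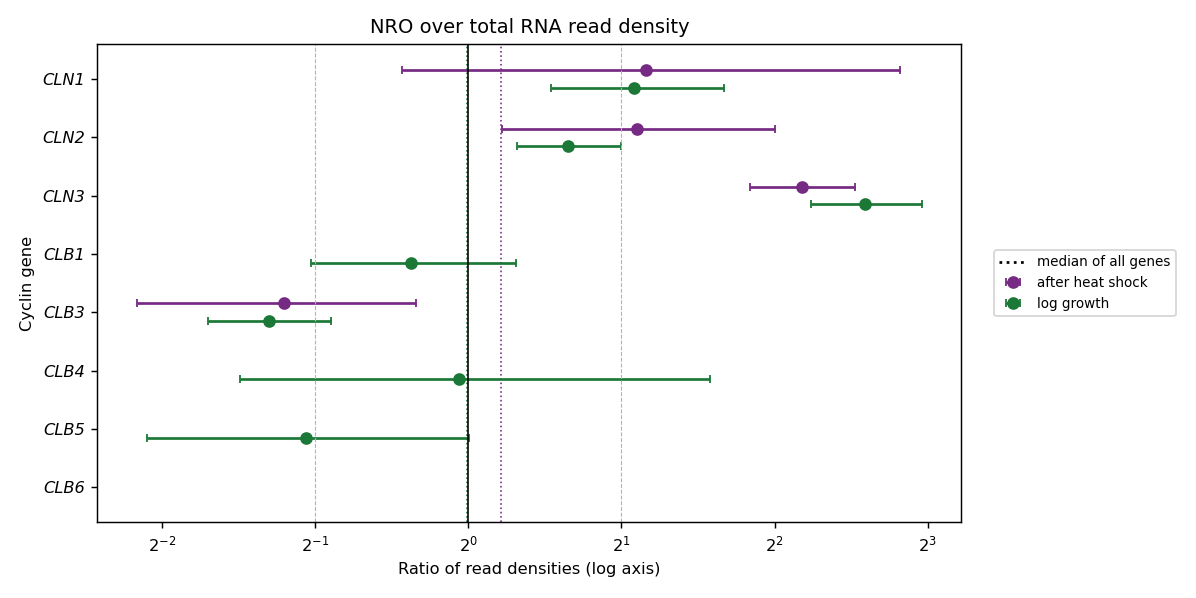
NRO read density over that in total RNA (log axis) for each cyclin gene after heat shock (purple) and in log growth (green), with exact binomial 95% intervals on estimated reads; dotted lines mark the median of all genes and dashed lines 2-fold. *CLN3* lies farthest to the right, at 4.52 after heat shock and 6.03 in log growth, and *CLB3* to the left, at 0.433 and 0.406.

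Among the G1 cyclin genes, heat shock set *CLN3* apart from *CLN1* and *CLN2*. As shares of the NRO and the total RNA libraries, *CLN1* and *CLN2* fell by more than 2-fold in their point values. The share of *CLN3* was higher in both. In NRO, 3 of the 6 cyclin genes with reads in both libraries fell at least 2-fold (*CLN1*, *CLN2* and *CLB5*, the last from 1 read in NRO (HS)) and 0 rose as much. Of all 2894 genes, 23.1% fell and 16.2% rose by this limit. In total RNA, 3 of 6 fell (*CLN1*, *CLN2* and *CLB1*) and again 0 rose at least 2-fold, against 27.7% and 10.2% of 3282 genes. The median log2 change was -0.77 for the cyclins and -0.10 for all genes in NRO, and -1.11 and -0.41 in total RNA. Relative to that all-gene median, 17.6% of genes fell and 16.1% rose in total RNA, and *CLN3* passed 2-fold there. The cyclin medians depended on genes with few reads. With at least 10 reads in both libraries, the medians of the 3 cyclin genes left were -0.32 in NRO and -0.41 in total RNA. Those of all genes were 0.01 and -0.27. A pseudocount of 0.01 on both densities gave medians of -0.35 and -0.64 for the 8 cyclin genes.

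*CLN2* had a density of 0.0380 in NRO (HS) and 0.0883 in NRO (26 and 398 reads), and of 0.0177 in total RNA (HS) and 0.0563 in total RNA (21 and 91 reads). The NRO ratio was 0.430 (0.278 to 0.640) and the total RNA ratio 0.314 (0.186 to 0.509). Its paralog *CLN1* had 0.0137 in NRO (HS) and 0.0438 in NRO (9 and 189 reads), and 0.00616 in total RNA (HS) and 0.0207 in total RNA (7 and 32 reads). The ratios of *CLN1* were 0.314 in NRO (0.141 to 0.608) and 0.298 in total RNA (0.111 to 0.687). None of these 4 intervals included 1, but all 4 included 0.5, so that a fall past 2-fold was not separated from a smaller one. Of all genes, 18.2% had a lower NRO ratio than *CLN2* and 11.2% a lower one than *CLN1*. In total RNA these shares were 12.9% and 11.9%.

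*CLN3* was 1.49-fold higher in NRO (HS) than in NRO (1.30 to 1.70), from 261 and 1156 reads, and 1.98-fold higher in total RNA (HS) than in total RNA (1.44 to 2.73), from 100.1 and 68.8 reads. Both values lay under the 2-fold limit, with intervals above 1. The total RNA value exceeded that of 89.7% of all genes and was 1.39 above their median on the log2 scale. The NRO value was less unusual, exceeding that of 73.4% of all genes and lying 0.68 above their median. *CLN3* thus made up 87.7% of the summed G1 cyclin density in NRO (HS) against 65.2% in NRO, and 77.4% in total RNA (HS) against 34.8% in total RNA. Its density was 4.61 times that of *CLN2* in total RNA (HS) (2.86 to 7.76) and 0.730 of it in total RNA (0.526 to 1.010). In NRO (HS) it was 9.70 times that of *CLN2* (6.47 to 15.1), against 2.80 in NRO (2.50 to 3.15). The summed density of the 3 genes was 0.420 in NRO (HS) and 0.380 in NRO, and 0.105 in total RNA (HS) and 0.118 in total RNA, so that the sum moved far less than its parts.

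**Figure D3:**
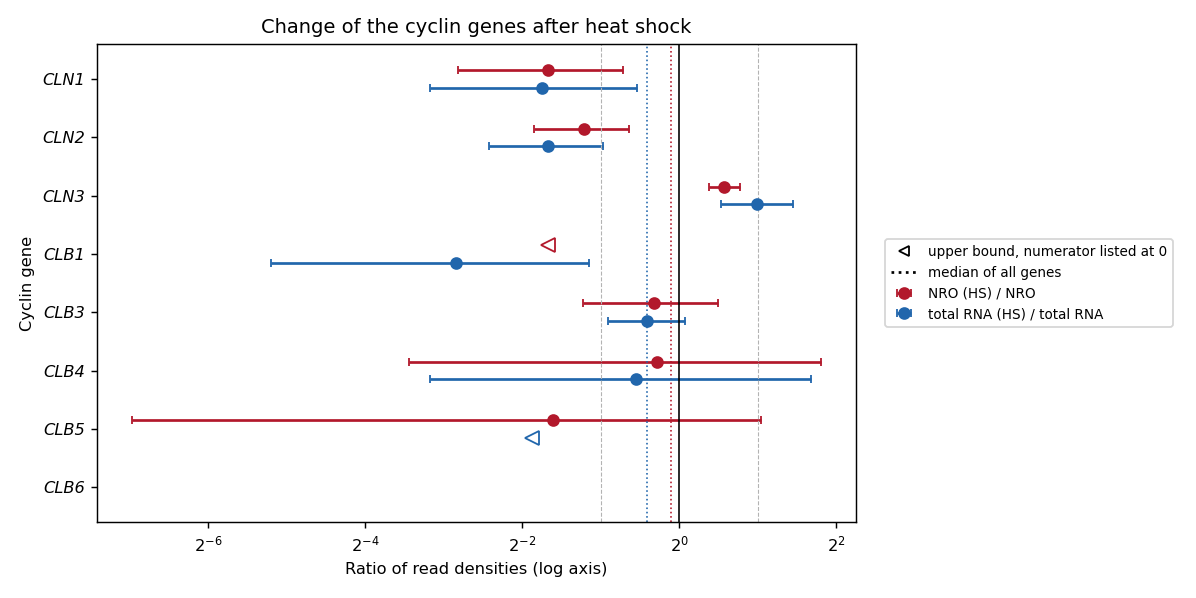
Ratio of read density after heat shock to log growth (log axis) for each cyclin gene in NRO (red) and total RNA (blue). Intervals are exact binomial 95% intervals. Open triangles mark ratios at the floor of 3 reads where the heat shock library is at 0, and dotted lines the median of all genes. *CLN1* and *CLN2* lie left of 0.5 in both kinds of RNA and *CLN3* right of 1, at 1.49 and 1.98.

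The B-type cyclins differed among themselves. *CLB1* was listed at 0 in NRO (HS), where an unchanged NRO density of 0.0171 would give 9.57 reads. Against a floor of 3 reads in the library, its transcriptional activity was 3.19-fold lower after heat shock. This fold is not a lower limit, since the counting interval of *CLB1* in NRO (HS) reached 0.00658, above the 0.00535 of the floor. That interval still lay below the NRO interval of 0.0131 to 0.0218. In total RNA, *CLB1* fell to 0.00308 in total RNA (HS), against 0.0221 in total RNA, a ratio of 0.139 (0.0272 to 0.449) from 3 and 29.3 reads. This was the largest fall of a cyclin gene with reads in both libraries, and only 2.86% of all genes had a lower ratio.

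*CLB3* stayed near the middle of all genes. It had 0.0275 in NRO (HS) and 0.0342 in NRO, a ratio of 0.803 (0.426 to 1.40), and 0.0636 in total RNA (HS) and 0.0844 in total RNA, a ratio of 0.753 (0.534 to 1.05). Both intervals included 1. With *CLN2* lower and *CLB3* little different, *CLN2* had 0.278 of the *CLB3* density in total RNA (HS) (0.160 to 0.467) and 0.667 of it in total RNA (0.497 to 0.894).

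For the S phase cyclin gene *CLB5*, total RNA (HS) was at 0, against 15 reads in total RNA, where an unchanged density would give 11.0 reads. Its abundance was 3.67-fold lower against the floor of 3 reads, which is again not a lower limit. The counting interval of *CLB5* reached 0.00495 in total RNA (HS) and began at 0.00826 in total RNA, so that the intervals were apart. In NRO it had 1 read in NRO (HS) and 20 reads in NRO, a ratio of 0.329 whose interval (0.00794 to 2.06) included 1, and its fall in NRO therefore rests on a single read. *CLB4* had 2 and 16 NRO reads and 3 and 6 total RNA reads, with ratios of 0.823 (0.0918 to 3.50) and 0.681 (0.110 to 3.19), so that no change was detectable at this depth. *CLB6* was at 0 in NRO (HS), NRO and total RNA (HS).

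In the 5 cyclin genes that had reads in all 4 libraries, the difference between the log2 change in NRO and that in total RNA was -0.41 for *CLN3* (-0.90 to 0.07), 0.45 for *CLN2* (-0.44 to 1.35), 0.07 for *CLN1* (-1.45 to 1.60), 0.09 for *CLB3* (-0.84 to 1.02) and 0.27 for *CLB4* (-2.64 to 3.19). These intervals all include 0, and 0 of the 5 genes differed by 1 or more, against 23.7% of 2781 genes with a larger change in NRO and 14.9% with a smaller one. Since the 4 ratios of a gene share libraries, they are not independent of each other.

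*CLN3* and *CLB3* were the G1 and the B-type cyclin gene with the most reads among those analysed. The genes whose values most resembled theirs were sought among the 1848 other genes with at least 10 reads in each of the 4 libraries. Likeness was the root mean square distance of log2 densities over the 4 libraries, each gene centred on its own mean. *SWT21* was nearest to *CLN3*, at 0.105, with densities of 0.371 in NRO (HS), 0.215 in NRO, 0.0790 in total RNA (HS) and 0.0435 in total RNA. *SIA1* (0.181) and *SFK1* (0.197) followed, where the median distance to *CLN3* was 1.34. Nearest to *CLB3* were *CDC14* (0.0713), which encodes the phosphatase of mitotic exit, *VMA4* (0.0742), a subunit of the vacuolar proton ATPase, and *SEC27* (0.110), a subunit of the COPI coat. The median distance to *CLB3* was 0.839.

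The machinery around the cyclins was read from 8 lists of 71 genes, of which 55 were present. After heat shock, 22 of the 43 genes with reads in both NRO libraries fell at least 2-fold (51.2%, beside 23.1% of all genes) and 3 rose (*CKS1*, *SKP1* and *CDC53*). In total RNA 21 of 47 fell (44.7%, beside 27.7%) and 1 rose (*PCL8*, from 6 and 3 reads). *CDC53* and *PCL8* are named here after their values were seen. The plot of gene lists shows where they lay. Genes of the G1 to S wave, which are targets of SBF and MBF as *CLN1* and *CLN2* are, had the lowest median of the 8 lists in total RNA, at -1.67, and 7 of 7 fell, while in NRO 4 of 6 fell. Only 2 of the 7 had at least 10 reads in both total RNA libraries, and with a pseudocount of 0.01 on both densities 4 of 7 fell in total RNA and 2 of 6 in NRO. *RNR1*, the large subunit of ribonucleotide reductase, had a density of 0.0137 in NRO (HS) and 0.0848 in NRO, and 0.0236 in total RNA (HS) and 0.0705 in total RNA. *RAD27*, a nuclease of DNA replication, fell in total RNA, with a ratio of 0.266 (0.151 to 0.442), and had a ratio of 1.32 in NRO (0.713 to 2.30).

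Of the CLB2 cluster, genes that are expressed together with *CLB1* and *CLB2* before mitosis, 5 of 6 fell in NRO and 5 of 7 in total RNA, with medians of -1.29 and -1.31. With the pseudocount of 0.01, 2 of 6 fell in NRO and 1 of 7 in total RNA. *HST3*, a histone deacetylase gene, fell to 0.448 of its NRO density and to 0.432 of its total RNA density, and *BUD8*, a gene of bud site selection, to 0.492 and 0.261. *CHS2*, the chitin synthase of the septum, had ratios of 0.975 (0.720 to 1.30) and 0.895 (0.685 to 1.16). The ratio of *KIN3*, a protein kinase gene, was 1.14 in total RNA (0.549 to 2.34) and 0.278 in NRO (0.118 to 0.558), the latter from 8 reads in NRO (HS). In the M to G1 wave, 3 of 4 genes fell in NRO and 1 of 4 in total RNA. There, *EGT2*, a cell wall gene of early G1, fell in NRO (0.381, 0.345 to 0.419) and *DSE2*, a gene of daughter cell separation, fell in total RNA (0.304, 0.180 to 0.492).

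Among the regulators of Start, 2 of 6 fell in NRO and 3 of 6 in total RNA, with 0 rises in either. *NRM1*, the corepressor of MBF, had ratios of 0.242 in NRO (0.109 to 0.467) and 0.201 in total RNA (0.0921 to 0.392). *STB1*, which encodes a Swi6-binding protein, had ratios of 1.52 in NRO (1.14 to 1.98) and 1.18 in total RNA (0.873 to 1.59). In the list of transcription factors of G2 to M and M to G1, 2 of 5 fell in NRO and 3 of 7 in total RNA. *FKH2*, a forkhead factor of the CLB2 cluster, fell in NRO (0.346, 0.235 to 0.494), and the repressor gene *YOX1* fell in total RNA (0.420, 0.291 to 0.595). *MCM1* had the highest total RNA ratio of that list among its better covered genes, at 0.875 (0.800 to 0.956).

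In NRO, 1 of 4 genes of the kinase and its modifiers rose and 2 fell, and 2 of 7 genes of cyclin destruction rose and 3 fell. In total RNA, 0 of 5 genes of the kinase list passed 2-fold, and 1 of 6 genes of cyclin destruction fell, which was *GRR1* with 2 reads after heat shock, named after its values were seen. *CKS1*, the small subunit of the Cdc28 kinase, rose 4.84-fold in NRO (2.70 to 8.56), with a total RNA ratio of 1.32 (0.919 to 1.89). *CDC28*, named here as the partner of all cyclins after its values were seen, had 3 reads in NRO (HS) and 111 in NRO, a ratio of 0.178 (0.0362 to 0.534), and 12 and 15 reads in total RNA (HS) and total RNA, a ratio of 1.09. *CAK1*, which encodes the activating kinase of Cdc28, and *SIC1*, the inhibitor of its Clb complexes, had total RNA ratios of 1.40 and 0.786, with intervals that included 1. *SKP1*, of the SCF ubiquitin ligase that marks Cln1 and Cln2, rose 2.57-fold in NRO (2.12 to 3.10) at a total RNA ratio of 1.12. *CDH1*, an activator of the ligase that marks the mitotic cyclins, fell to 0.480 in NRO (0.349 to 0.646). The total RNA ratios of *CDC34* (1.44) and *CDC20* (0.537), 2 further genes of cyclin destruction, lay within 2-fold. In NRO, *CDC34* had a ratio of 1.38 (1.01 to 1.85) and *CDC20* one of 0.425 (0.179 to 0.864), the latter from 8 and 124 reads. Of the Pho85 kinase and its cyclins, a separate family, 1 of 5 fell and 0 rose in NRO, and 1 fell and 1 rose in total RNA. *CLG1* fell in NRO (0.479) and *PCL1* in total RNA (0.251). *PCL5* was the highest of the list among its better covered genes in both, at 1.76 and 1.46.

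**Figure D4:**
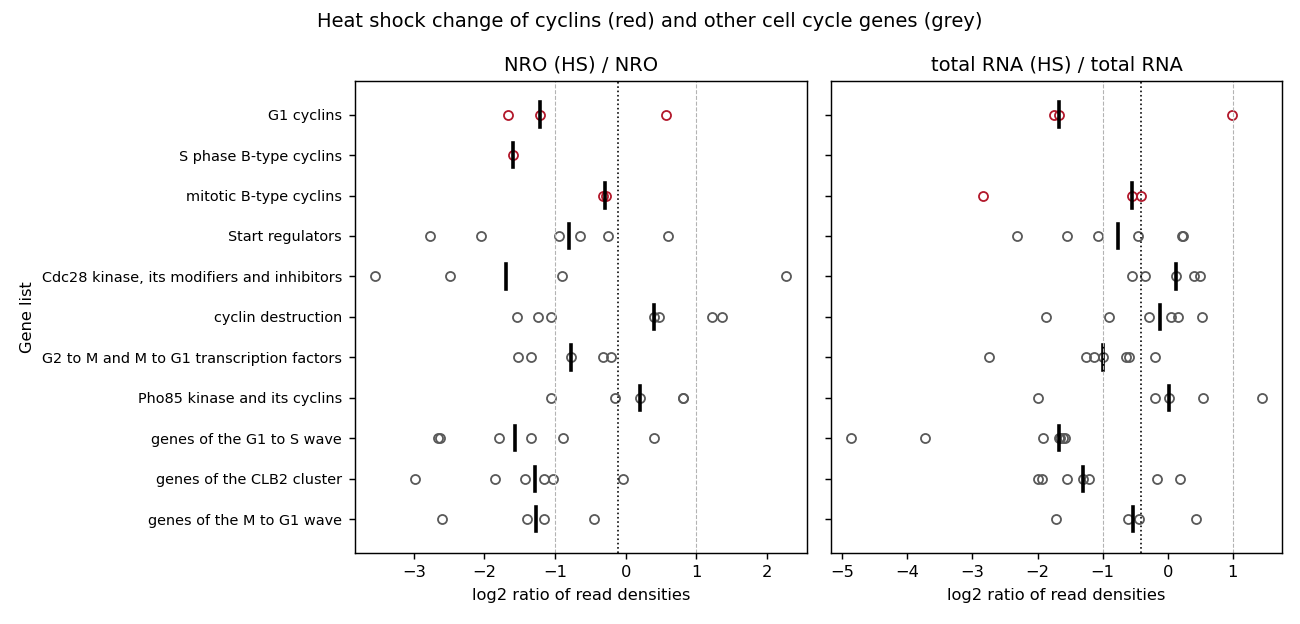
log2 ratio of read density after heat shock to log growth for the genes of each list in NRO (left) and total RNA (right), with cyclin lists in red, other lists in grey, black bars at list medians, dotted lines at the median of all genes and dashed lines at 2-fold. In total RNA the G1 cyclins and the G1 to S wave both have a median of -1.67, and among the G1 cyclins *CLN3* lies to the right of 0 in both kinds of RNA.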

How the data were processed

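The authors aligned reads to sacCer2 with Maq, kept alignments of mapping quality 30 or more, left out rDNA, merged the 3 libraries of each group and computed the signal (coverage) per transcript model. The deposited signal is the read depth summed over a region, and the read density is its mean per mappable nonintronic base, which the authors scaled by the bases each merged library acquired. Of the 13 samples, an NRO library of transcript 3′ ends was left out, and 12 columns of other depths were not used.

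Estimated reads are the depth in bases over the read length, which the low depths gave as 38 bases for total RNA and 36 for the other libraries. The study's methods give 36 for all. In total RNA, 81.1% of the low depths were whole multiples of 38 and 0.561% of 36, and with 36 its estimate would be 943943 reads. Intervals are exact Poisson or exact binomial 95% intervals on these reads, and normal approximations for differences of log2 changes. Ratios used genes with reads in both libraries, and bounds a floor of 3 reads per library. No test across replicates was run, since the processed files used here hold 1 merged value per group. The reads of single libraries were not used here. The members and the gene lists were chosen with earlier results of these data known. Besides all members, *SSA4* and the nearest genes, the text names for each list the genes with the highest and lowest heat shock ratio in NRO and in total RNA among those with at least 10 reads in both libraries. *LYS2* and the a-specific genes are a weak check of the strain. The steps were tested on simulated data. Sequence features other than mappability and length were not analysed. Symbols came from the R64 annotation. Tables were handled with pandas 2.3.3 and numpy 2.4.6 in Python 3.11.15, intervals computed with scipy 1.17.1 and plots drawn with matplotlib 3.10.9.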

Additional observations from a re-analysis of the deposited data

Results flagged for a closer look

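In 4 genes of the lists, named by the rule and with at least 10 reads in each of the 4 libraries, the heat shock change had one sign in NRO and the other in total RNA, and the difference was not tested. The log2 change of *PCL1*, a cyclin gene of the Pho85 kinase, was 0.20 in NRO and -1.99 in total RNA. Its NRO ratio was 1.15, with an interval (0.917 to 1.44) that included 1. For *RAD27* it was 0.40 in NRO and -1.91 in total RNA. *MSA1*, which encodes an activator of genes at Start, had -0.95 in NRO and 0.22 in total RNA. The interval of its total RNA ratio (0.918 to 1.48) included 1. For *ASH1*, a daughter cell repressor of M to G1, the log2 change was -1.16 in NRO and 0.43 in total RNA. Only here did both ratio intervals leave out 1, at 0.393 to 0.509 in NRO and 1.08 to 1.68 in total RNA.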

How the results depend on the processing

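Of the 85 alternative values for single cyclin genes, all stayed within the counting interval of the main value and none turned its direction past 2-fold. For the other named genes, 539 values stayed within it and 16 moved. This check is weak where reads are few, as for *CLB5*, whose interval for the NRO heat shock ratio was 0.00794 to 2.06. A value could also lose its 2-fold call and stay within the interval. In log growth the log2 ratio of *CLN1* was 1.08, and 0.81 with a pseudocount of 0.01. One of the settings, the density over all bases, could not move the cyclin values, because all 8 regions lacked introns and were 100% mappable. That setting gave 209 of the single-gene values, cyclins and others together, and all 209 stayed within the interval. Counts of cyclin genes past 2-fold were small and moved more. With a pseudocount of 0.01, in log growth 1 gene was higher and 1 lower in NRO than in total RNA. After heat shock, 1 was higher and 0 lower, with a median log2 ratio of 0.18, and centring on the median of all genes also left 1 higher. When at least 10 reads were required in both libraries, 1 gene fell in NRO and 1 in total RNA, out of 3 left in each. Of all genes, 14.0% and 18.5% fell at this setting. For *CLN3*, centring or a limit of 1.5-fold gave 1 rise in total RNA in place of 0. Of all 3282 genes, 16.1% rose with centring and 16.1% with the 1.5-fold limit. Placing genes at 0 in one library at the floor of 3 reads, a choice made after seeing the data, gave 4 falls in NRO and 4 in total RNA. No all-gene share is given beside the cyclin counts for the floor or the pseudocount. No paired analysis was possible because the processed files used here hold 1 merged value per group, and for the same reason no replicate was left out. In the 8 lists, the pseudocount gave 13 falls of 43 genes in NRO (30.2%, beside 12.9% of all genes) and 10 of 47 in total RNA (21.3%, beside 13.6%). With at least 10 reads in both libraries, 9 of 26 (34.6%, beside 14.0%) and 9 of 32 fell (28.1%, beside 18.5%). Both list counts were added after seeing the data, as was a read length of 36 for total RNA, which moved interval bounds by up to 2.96% and left 1 on the same side in 12 of 13 intervals. The exception was *CLB5* in log growth, whose upper bound then lay below 1. The NRO (HS) library was the shallowest, and *CLB4* and *CLB5* had 2 and 1 reads there.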
